A study of Mus musculus with 12 samples.

Results

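The 8 genes described here encode the core of the growth factor pathway from phosphoinositide 3-kinase (PI3K) to protein synthesis: Pik3ca, Pik3r1, Pdpk1, Akt1, Akt2, Rps6kb1, Eif4ebp1 and Ddit4. They were chosen by symbol, 8 of the 55487 genes in the deposited table, and all 8 passed the count filter that left 17890 genes for testing. Whole kidneys were taken at 30 weeks of age from male mice on the B6 background with X-linked Alport syndrome (XLAS), a disease of the collagen IV network of the glomerular basement membrane for which the labels name Col4a5. The mice ate a control diet or one containing fisetin, a plant flavonol, at 500 ppm. Messenger RNA was sequenced in 6 libraries per diet, split evenly over the labels' 2 batches, 3 of a diet in each. All 12 libraries carry the disease, so there is no healthy kidney among the values below, and the genotype field reads HET although the mice are described as male, so no allele status was used. The libraries are numbered control 1 to 6 and fisetin 1 to 6 in accession order, which pairs nothing, and the labels do not say that each came from its own animal, so p-values measure the spread between these libraries.

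In this pathway a receptor such as that for insulin recruits PI3K, which makes the membrane lipid PIP3. PIP3 brings the kinases PDK1 and AKT together at the membrane, where PDK1 phosphorylates AKT on its activation loop. AKT lowers the restraint of the TSC complex on RHEB and so activates mTOR complex 1 (mTORC1), whose best known substrates are S6 kinase and the 4E-BP proteins, and DDIT4 (REDD1) acts in the opposite sense. In the kidney the pathway is known for its part in tubular and podocyte growth. The series title places mTOR signalling at the centre of the study, and the comparison of diets asks whether the messages of these proteins differed with fisetin. The pathway is run by phosphorylation, which messenger RNA does not measure.

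Some steps of the pathway run through short protein stretches, and sets of their coding bases are printed. They show how alike these stretches are between genes counted separately, not how alike the whole messages are. In the first set the capitals mark the codon of the activation loop threonine that PDK1 phosphorylates, with 12 bases before it and 24 after (GENCODE M21 transcripts, GRCm38). It is codon 308 of Akt1 (exon 10, chr12:112657077-112657115, minus strand), codon 309 of Akt2 (exon 10, chr7:27636120-27636158, plus strand) and codon 252 of Rps6kb1, where the stretch spans 2 exons (chr11:86513390-86513584, minus strand).
Akt1: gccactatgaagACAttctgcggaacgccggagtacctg
Akt2: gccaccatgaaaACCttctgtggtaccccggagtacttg
Rps6kb1: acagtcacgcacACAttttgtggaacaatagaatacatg
Akt1 and Akt2 were identical at 32 of these 39 bases, and their codons encode the same residue at all 13 positions. Akt1 and Rps6kb1 were identical at 23 of the 39 bases and at 7 of the 13 encoded residues.

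In the second set the capitals mark the codons of the motif by which 4E-BP proteins bind the cap binding factor eIF4E, codons 53 to 59 of Eif4ebp1 (exon 2, chr8:27273325-27273369, plus strand) and 54 to 60 of Eif4ebp2 (exon 2, chr10:61435057-61435101, minus strand).
Eif4ebp1: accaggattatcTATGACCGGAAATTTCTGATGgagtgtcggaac
Eif4ebp2: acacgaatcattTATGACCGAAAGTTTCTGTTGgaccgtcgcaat
These stretches were identical at 33 of 45 bases and at 12 of 15 encoded residues. How reads that could come from more than one family member were treated is not given in the sources used here.

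Total counts were 16310214 to 24451821 per library, which put every member at 246 counts or more in each library. Before any test, 3 libraries stood on the other diet's side of the first principal component of log2 CPM (TMM-scaled counts relative to the library total), which held 46.11% of the variance: control 1 lay at 26.34 among the fisetin libraries, fisetin 6 at -40.53 among the controls, and fisetin 3 near the middle at -2.11. Whether control 1 and fisetin 6 carry the right diet labels was not tested and cannot be settled from these values, and every diet difference below takes the labels as given. Fisetin 6 was also the highest or lowest of all 12 libraries for 5 of the 8 members. Nephron markers were high, the mean of 10 proximal tubule markers being 8.375 to 9.822 log2 CPM, while 4 of 5 adrenal markers did not pass the count filter. These are whole-organ messages, in which fewer cells of a type and less RNA per cell cannot be told apart.

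None of the 8 genes passed the test between the diets. Each member's fisetin and control values overlapped, every 95% interval of the log2 fold change included 0, and no adjusted p was below 0.426 (edgeR's quasi-likelihood test with batch as a covariate, Benjamini-Hochberg adjustment over 17890 genes, threshold 0.05). The test called 0% of all genes tested, with a smallest adjusted p of 0.145, so a lack of calls is not particular to these members. At an unadjusted p under 0.05 the members also gave 0 in either direction, beside 8.23% of all genes higher and 6.34% lower with fisetin. Ranges that did not overlap between diets were found for 0.894% of all genes and for no member. DESeq2, run as an alternative, called 0.954% of the 16140 genes it gave an adjusted p, and none of the 8. Of the members, 4 had fitted values above 0 and 4 below, with a median of -0.015 beside 0.001 for all genes tested.

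**Figure D1:**
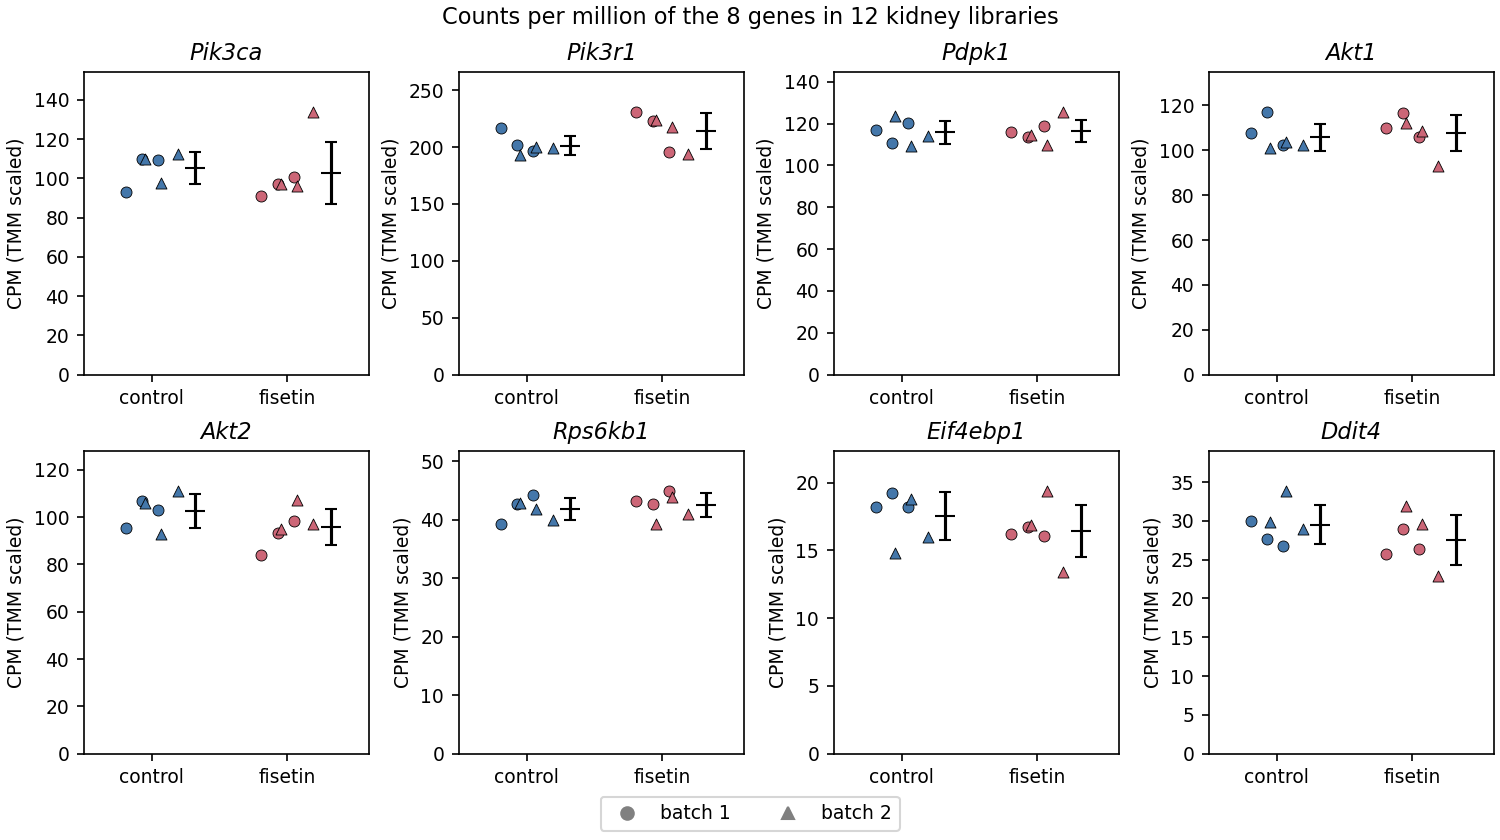
TMM-scaled CPM (y axis, from 0) of the 8 genes by diet (x axis); points are libraries, circles from batch 1 and triangles from batch 2, and the bars give mean and SD (n = 6 a diet). The diets overlap in all 8 panels, and fisetin 6 is the single Pik3ca value at 134.

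The catalytic subunit gene of PI3K, Pik3ca (ENSMUSG00000027665; GRCm38 chr3:32397671-32468486, plus strand), encodes p110 alpha, the enzyme that makes PIP3. Its CPM ran from 92.87 through a median of 109.5 to 112.4 on the control diet and from 90.79 through 97.31 to 134 on fisetin. Fisetin 6 held the 134, above every other library, and the other 5 fisetin libraries lay between 90.79 and 100.9, among the lower control values. The means were 105.3 ± 7.99 and 102.8 ± 15.7 CPM (SD, n = 6 each), with a log2 fold change of -0.04 ± 0.09 (SE) and a 95% interval from -0.23 to 0.15 (adjusted p = 0.844). Without fisetin 6, singled out here by its own Pik3ca value, the log2 fold change was -0.12 (unadjusted p = 0.05745 in edgeR, adjusted p = 0.208). Pik3ca lies over an uncharacterised locus on its own strand, Gm37123, which was counted at 216.01 to 367.9 per library.

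The regulatory subunit gene Pik3r1 (ENSMUSG00000041417; chr13:101680563-101768217, minus strand) encodes p85 alpha, which stabilises p110 and docks it on receptors and adaptors. It was the most highly counted member, at 193.4, 199.6 and 216.8 CPM (lowest, median, highest) on the control diet and 193.6, 220.2 and 231.1 on fisetin. Fisetin 1, 2, 4 and 5 were above every control library, while fisetin 3 and fisetin 6 were among the lowest controls. The means of 201.4 ± 8.12 and 214.1 ± 15.8 CPM gave a log2 fold change of 0.09 ± 0.06 (95% interval -0.03 to 0.21; adjusted p = 0.434), and the exact permutation of diet labels within batches gave p = 0.15, two-sided. The differences of mean log2 CPM were 0.07 in batch 1 and 0.10 in batch 2. Pik3r1 overlaps 2 annotated entries named Gm36638 on its own strand, which were counted at 2 to 189 per library.

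Pdpk1 (ENSMUSG00000024122; chr17:24073680-24150924, minus strand) encodes PDK1, the kinase of the activation loop codons shown above. Its coefficient of variation over the 12 libraries, 4.48%, was level with that of Rps6kb1 (4.49%) and below those of the other members. Control libraries held 109.5, 115.4 and 123.7 CPM and fisetin libraries 110, 115.3 and 125.7. The diets covered almost the same range, and the log2 fold change was 0.01 ± 0.05 (95% interval -0.10 to 0.11; adjusted p = 0.948).

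Akt1 (ENSMUSG00000001729; chr12:112653821-112674884, minus strand) encodes the AKT form known for growth and survival, and Akt2 (ENSMUSG00000004056; chr7:27591552-27640826, plus strand) the form known for insulin-driven glucose uptake. Akt1 was at 101.1, 103.2 and 117.2 CPM on the control diet and at 93.2, 109.1 and 116.8 on fisetin. Its lowest value was fisetin 6, and its log2 fold change was 0.03 ± 0.05 (95% interval -0.09 to 0.14; adjusted p = 0.816). Akt2 was at 92.83, 104.6 and 111.2 CPM on the control diet and at 84.04, 96.15 and 107.1 on fisetin. Fisetin 1 was the lowest Akt2 library and fisetin 5 the only fisetin library above the control median. The Akt2 log2 fold change of -0.10 ± 0.06 (95% interval -0.23 to 0.03) had the smallest p of the 8, at 0.127 unadjusted and 0.426 adjusted in edgeR. Its difference of mean log2 CPM was -0.15 in batch 1 and -0.05 in batch 2.

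Rps6kb1 (ENSMUSG00000020516; chr11:86498871-86544805, minus strand) encodes S6 kinase 1, which phosphorylates ribosomal protein S6. It was counted at 39.31, 42.21 and 44.19 CPM on the control diet and at 39.25, 42.93 and 44.94 on fisetin. The diets shared nearly the whole range, with a log2 fold change of 0.02 ± 0.05 (95% interval -0.08 to 0.12; adjusted p = 0.827). It overlaps Rnft1 on the opposite strand, itself counted at 536 to 977 per library, and whether the counting used strand is not given in the sources used here.

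Eif4ebp1 (ENSMUSG00000031490; chr8:27260329-27276674, plus strand) encodes 4E-BP1, the repressor that holds eIF4E until mTORC1 phosphorylates it. Its CPM was the lowest of the 8, at 14.8, 18.2 and 19.23 on the control diet and 13.41, 16.46 and 19.4 on fisetin. In batch 1 the 3 control libraries (18.19 to 19.23) lay above the 3 fisetin libraries (16.06 to 16.72), whereas in batch 2 the fisetin range of 13.41 to 19.4 enclosed the control range of 14.8 to 18.78. The difference of mean log2 CPM was -0.18 in batch 1 and -0.01 in batch 2, and the interaction of diet with batch did not pass (unadjusted p = 0.325, adjusted p = 1.00 in edgeR). Over both batches the fitted log2 fold change was -0.09 ± 0.09 (95% interval -0.29 to 0.11, adjusted p = 0.618), and -0.04 without fisetin 6, the lowest library.

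Ddit4 (ENSMUSG00000020108; chr10:59949669-59951834, minus strand) encodes REDD1, a brake on mTORC1 whose message is known to rise with low oxygen, glucocorticoids and other stress. It stood at 26.74, 29.36 and 33.89 CPM on the control diet and at 22.89, 27.66 and 31.96 on fisetin. The highest library was control 5 and the lowest fisetin 6, and the remaining libraries of both diets were mixed. Its log2 fold change was -0.10 ± 0.08 (95% interval -0.27 to 0.08; adjusted p = 0.548), and -0.03 without fisetin 6.

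**Figure D2:**
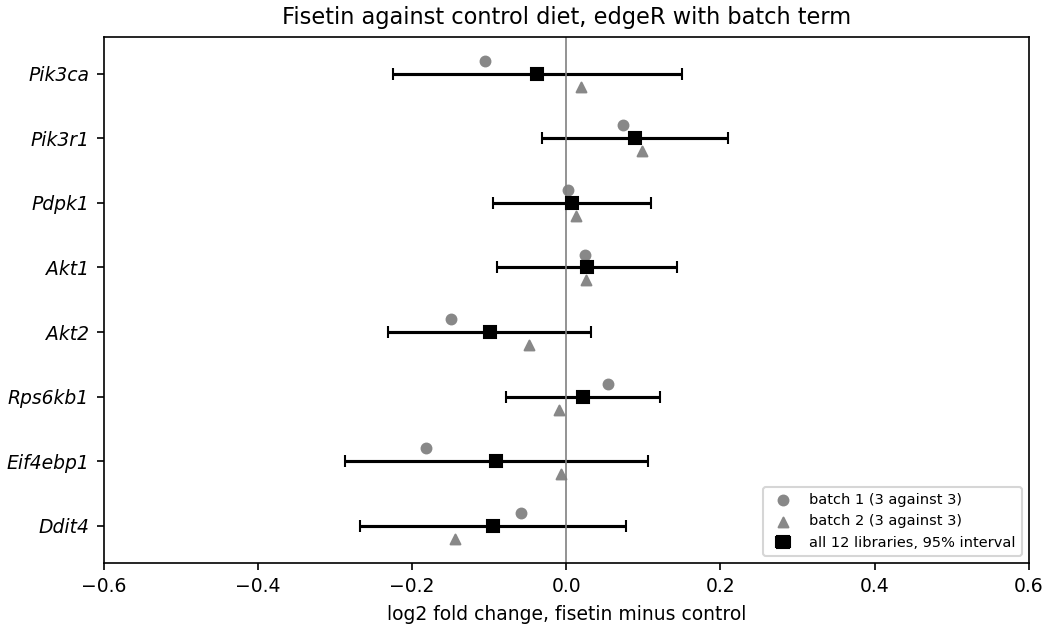
Log2 fold change of fisetin over control diet (x axis) for each gene. Squares with bars are edgeR values over 12 libraries with their 95% intervals. Grey symbols are the differences of mean log2 CPM within batch 1 and batch 2. Every interval crosses 0, and the batch values of Eif4ebp1 lie furthest apart, at -0.18 and -0.01.

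The intervals bound what these libraries could have missed. The widest, that of Eif4ebp1, ran from a 0.820-fold to a 1.08-fold level on fisetin, and the narrowest, that of Rps6kb1, from 0.947-fold to 1.09-fold. The diet by batch interaction was under an unadjusted p of 0.05 for 2.1% of all genes and for none of the members. The batch term itself called 0% of genes tested and no member, with unadjusted p from 0.138 for Akt1 to 0.987 for Pdpk1 in edgeR.

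Levels of different genes were compared per transcript length, as FPKM. Akt1 (48.31 ± 4.91 FPKM, SD, n = 12) and Pik3r1 (46.66 ± 6.31) were the highest, Akt2 (37.7 ± 2.68) came next, and Pdpk1 (20.17 ± 0.98), Ddit4 (19.7 ± 2.50) and Pik3ca (16.94 ± 2.55) followed. Eif4ebp1 (13.28 ± 2.38) and Rps6kb1 (12.47 ± 1.46) were the lowest. Akt2 was above Pdpk1 in 12 of 12 libraries, and this was the 1 neighbouring pair separated in every library. Akt1 exceeded Pik3r1 in 9 of 12, Pdpk1 exceeded Ddit4 in 8 and Eif4ebp1 exceeded Rps6kb1 in 8, so these neighbours did not differ beyond their spread. Pik3r1 exceeded Akt2, Ddit4 exceeded Pik3ca and Pik3ca exceeded Eif4ebp1 in 11 of 12 each. All 8 messages were in the upper part of the tested genes by FPKM, from Rps6kb1 above 58.08% of them to Akt1 above 88.43%.

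For 5 members, the level was next set against the close family members that can do the same work. Shares of the family's summed FPKM within a library do not depend on scaling between libraries. Pik3ca held 55.08% ± 3.35 (SD, n = 6) of the p110 alpha, beta and delta messages on the control diet and 50.25% ± 8.48 on fisetin. The share of Pik3cd, the delta form known from leukocytes, was 20.64% ± 5.08 and 28.78% ± 9.01 on the same diets, and that of Pik3cb 24.27% ± 2.06 and 20.97% ± 1.46. Pik3r1 held 59.84% ± 2.58 and 62.95% ± 3.30 of the class IA regulatory messages, the rest being Pik3r2 and Pik3r3.

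S6 kinase messages were shared nearly evenly, with Rps6kb1 at 47.83% ± 5.64 and 48.26% ± 4.86 on control and fisetin diets and Rps6kb2 making up the rest. Among the 4E-BP genes, Eif4ebp1 was a minor message, at 13.87% ± 2.28 and 14.85% ± 2.79, while Eif4ebp2, of the second set of sequences above, held 74.85% ± 2.92 and 74.06% ± 4.32. Ddit4 held 67.82% ± 3.86 and 68.61% ± 2.15 beside its relative Ddit4l. In exact permutation tests of the log2 ratio of each member to its relatives, two-sided over 400 arrangements within batches, none of the 5 families given here passed. The smallest p was 0.085 for Pik3r1 (0.51 adjusted over 6 ratios tested), followed by 0.235 for Pik3ca (0.54 adjusted). Without fisetin 6 the Pik3ca ratio difference went from -0.28 to -0.47 on the log2 scale (exact p = 0.015) and the Pik3r1 difference from 0.19 to 0.23 (exact p = 0.045). Neither p was adjusted over the families, and both rest on fewer arrangements. Fisetin 6 was singled out by its own values, that of Pik3ca among them, so these p-values support no difference.

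**Figure D3:**
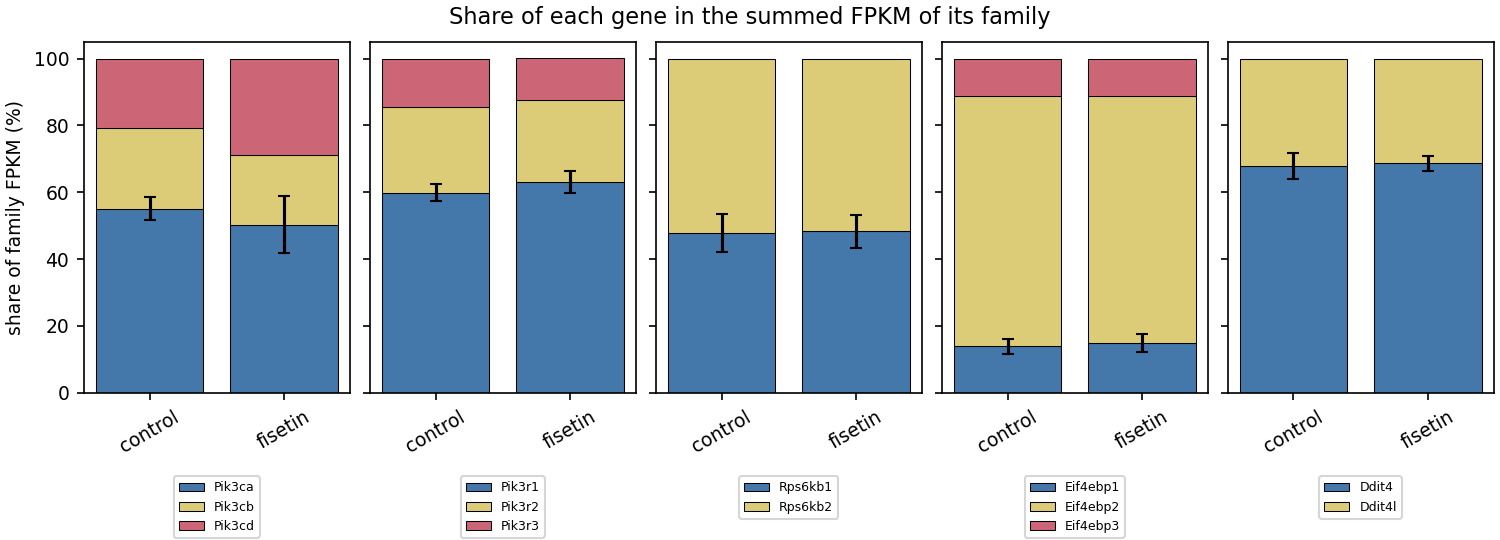
Mean share of each gene in the summed FPKM of its family (y axis, percent) on the control and fisetin diets (n = 6 libraries each); error bars are the SD of the lowest segment, the member named first. Eif4ebp1 is the smaller part beside Eif4ebp2 on both diets.

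Across the 12 libraries the members did not vary as 1 block. Of the 28 pairs, 14 correlated positively and 14 negatively in log2 CPM, and 2 passed over the 28 by Pearson's r (permutation p with 100000 resamples, Benjamini-Hochberg adjusted). The resamples shuffled all 12 libraries without regard to diet or batch. These p-values therefore do not separate differences between diets or batches from other variation between libraries. The catalytic and regulatory subunit genes, Pik3ca and Pik3r1, ran against each other, with r = -0.746 (permutation p = 0.00302, 0.0423 adjusted) and rho = -0.818 (p = 0.00171, 0.0256 adjusted). Leaving out the 2 libraries furthest in Pik3ca, control 6 and fisetin 6, gave r = -0.80, and r was -0.83 within batch 1 and -0.71 within batch 2 (6 libraries each). The libraries fell into a high and a low set by Pik3r1: control 1 and fisetin 1, 2, 4 and 5 were at 216.8 CPM or more and the other 7 at 202 or less. Within those 7, which were set apart by Pik3r1 and so span little of its range, r of Pik3r1 with Pik3ca was -0.445. The same sets lie on the 2 sides of the first principal component, whose part in the relation was not tested.

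Pdpk1 and Eif4ebp1 were also opposed, with r = -0.793 (permutation p = 0.00205, 0.0423 adjusted) and rho = -0.713 (0.109 adjusted). That relation rested on control 4 and fisetin 6, without which r was -0.505, and it was -0.337 within batch 1 against -0.957 within batch 2. Pik3r1 and Akt1 varied together by rank (rho = 0.818, permutation p = 0.00183, 0.0256 adjusted) but did not pass by Pearson's r (0.656, 0.114 adjusted). The r of that pair was 0.663 without fisetin 1 and fisetin 4, 0.398 in batch 1, 0.879 in batch 2 and 0.759 within the 7 libraries of low Pik3r1. Akt1 and Akt2 showed little relation (r = -0.175, 0.825 adjusted).

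**Figure D4:**
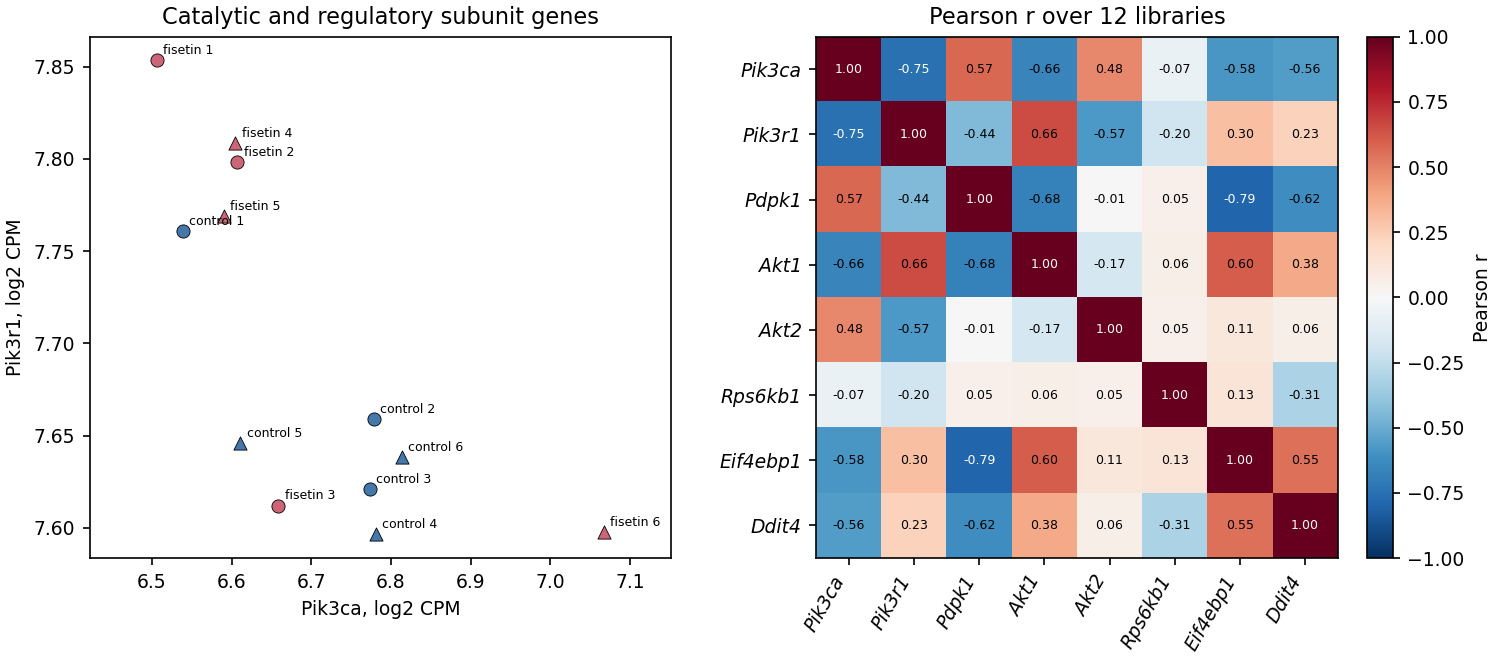
Left, log2 CPM of Pik3ca (x axis) and Pik3r1 (y axis) in each library, blue for control and red for fisetin, circles for batch 1 and triangles for batch 2; right, Pearson r of all 28 pairs over 12 libraries (colour scale from -1 to 1). Pik3r1 is high where Pik3ca is low, with r of -0.75, and Rps6kb1 has no r beyond 0.31 in size.

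After the 4 batch-by-diet means were subtracted, the gene most like each member among 11457 others averaging 3 log2 CPM or more was found by Pearson's r over the 12 libraries, as a description with no test. For Pik3ca these were Spag9 (0.984), Fnip2 (0.980) and Trak1 (0.979), and for Pik3r1 Fmnl3 (0.960), Trerf1 (0.956) and Rrbp1 (0.956). Pdpk1 was followed by Sesn2 (0.969), Commd3 (0.949) and Ate1 (0.946), of which Sesn2 encodes a sestrin that restrains mTORC1 when leucine is low. Akt1 was followed by Eif3d (0.977), Urb1 (0.975) and Clstn2 (0.954), and Akt2 by Rac1 (0.947), Atp13a1 (0.926) and Tatdn1 (0.918). The likeness was lowest for Rps6kb1, led by Vps45 (0.913), Api5 (0.890) and Ube2w (0.890). Eif4ebp1 was followed by Mapk6 (0.982), Trim16 (0.957) and Sphk1 (0.957), and Ddit4 by Ctxn1 (0.960), Mcm2 (0.960) and Pdpn (0.958). Without the subtraction r was higher for Atp13a1 (0.937) and lower for the other genes named. It was 0.599 for Sesn2 with Pdpk1, 0.564 for Rac1 with Akt2 and 0.463 for Pdpn with Ddit4. The part of fisetin 6 in these likenesses was not tested. The highest of so many coefficients over so few libraries is bound to be large, and all genes share the libraries' depth and scaling.

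The rest of the pathway was read from 9 lists of 102 genes, of which 101 were tested. Fitted values were above 0 for 50 and below 0 for 51, with a median of -0.003, and none was called by edgeR. At an unadjusted p under 0.05, 9 of the 101 were higher and 9 lower, together 17.82%. Of all 17890 genes tested, 2608 were under that threshold in either direction, 8.23% higher and 6.34% lower. DESeq2 called 1 of the 101, Bad. Upstream of PI3K, the insulin receptor Insr (log2 fold change 0.00 ± 0.06) and the adaptors Irs1 (0.07 ± 0.09) and Irs2 (-0.00 ± 0.12) had values within their errors. In that list of 16 receptors and adaptors, 2 were lower at an unadjusted p under 0.05 and none higher: Erbb2 (-0.22 ± 0.08, adjusted p = 0.290 in edgeR) and Met (-0.27 ± 0.10, adjusted p = 0.303), the receptors of the ErbB family and of hepatocyte growth factor.

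Among 8 further class I PI3K genes the median was 0.32, and 2 were higher at an unadjusted p under 0.05. Pik3cd went from 24.07 ± 4.62 to 34.97 ± 11.4 CPM (log2 fold change 0.54 ± 0.21; adjusted p = 0.306) and Pik3ap1, an adaptor known from B cells, from 27.8 ± 7.87 to 40.85 ± 12.01 CPM (0.56 ± 0.22; adjusted p = 0.311), both in edgeR. The subunits expressed more widely were nearer 0, with Pik3cb at -0.09 ± 0.07 and Pik3r2 at -0.06 ± 0.05. Beside them, all 18 of 18 immune cell markers had fitted values above 0, 7 of them at an unadjusted p under 0.05, with a median of 0.584. Among all 17890 genes tested 8982 were above 0, and 8.23% were higher at that threshold. The mean of the immune list ran from 3.565 to 5.09 log2 CPM in control libraries and from 3.56 to 5.583 in fisetin libraries, and none of its markers was at 0. Its first 2 genes were Flt3 (0.51 ± 0.16) and Ptprc, the pan-leukocyte antigen CD45 (0.73 ± 0.25). The part of immune cell content in the Pik3cd and Pik3ap1 values was not tested.

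Proximal tubule and collecting duct markers stood the other way. Below 0 were 10 of 10 proximal tubule markers (median -0.354, 2 at an unadjusted p under 0.05) and 10 of 11 collecting duct markers (median -0.463, 7 at that threshold). Among all 17890 genes tested 8904 were below 0, and 6.34% were lower at that threshold. Thick ascending limb markers were below 0 in 6 of 6, distal tubule markers in 4 of 5 and injured tubule markers in 4 of 8. The proximal tubule list ran from 9.021 to 9.822 log2 CPM in control libraries and from 8.375 to 9.792 in fisetin libraries, and the collecting duct list from 4.424 to 4.927 and from 3.543 to 4.704. Podocyte, endothelial and fibroblast lists had medians of -0.013, -0.075 and 0.021. The part of cell makeup in the members' levels was not tested.

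Of the 14 phosphatases and AKT brakes, 3 were higher and 1 lower at an unadjusted p under 0.05. Inpp4b, which acts on the PI3K product PI(3,4)P2, had 0.63 ± 0.22 (adjusted p = 0.291) and the SHIP2 gene Inppl1 -0.14 ± 0.05 (adjusted p = 0.303) in edgeR.

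Among the AKT-related kinases, Sgk3, which acts beside AKT downstream of PI3K, was at 0.11 ± 0.06 (adjusted p = 0.388 in edgeR).

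Of 13 AKT substrate genes tested, 1 was higher and 3 lower at an unadjusted p under 0.05, and Foxo6 did not pass the count filter. Bad, a cell death protein that AKT holds inactive, went from 18.72 ± 0.978 to 15.86 ± 0.892 CPM, and the ranges of the diets did not overlap. Its log2 fold change was -0.24 ± 0.05, with an adjusted p of 0.235 in edgeR and 0.0354 in DESeq2. Mdm2 was at 0.14 ± 0.05 (adjusted p = 0.290 in edgeR). The transcription factor Foxo1 (0.03 ± 0.05) and the RHEB restraint Tsc2 (-0.08 ± 0.04) were close to 0.

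Among 12 genes of the mTOR complexes and RHEB, 8 were below 0 and 1 of them was under 0.05 unadjusted, the mTOR assembly factor Tti1 (-0.12 ± 0.05). Mtor itself was at 303.4 ± 54.4 CPM on the control diet and 269.7 ± 38.8 on fisetin, with a log2 fold change of -0.16 ± 0.12 (adjusted p = 0.497), and Rictor of complex 2 at 0.09 ± 0.04 (adjusted p = 0.347), both in edgeR. None of the 8 genes around S6 kinase was under 0.05 unadjusted; Pdcd4, a translation repressor degraded after S6 kinase acts, was at 0.09 ± 0.04, Ncbp1 at -0.13 ± 0.08, Rps6kb2 at -0.12 ± 0.08 and Rps6 at 0.08 ± 0.06. In the cap binding arm 8 of 10 were below 0, with a median of -0.08. There the scaffold genes Eif4g3 (-0.20 ± 0.08, adjusted p = 0.313 in edgeR) and Eif4g1 (-0.11 ± 0.06) had the smallest p, and Eif4e and Eif4ebp2 stood at -0.09 ± 0.05 and -0.10 ± 0.07.

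Beside Ddit4, 10 other brakes on mTORC1 were read, of which 2 were higher and 1 lower at an unadjusted p under 0.05. Sesn2 went from 75.34 ± 11.5 to 56.63 ± 8.55 CPM (log2 fold change -0.41 ± 0.11, unadjusted p = 0.00336, adjusted p = 0.274 in edgeR). Its difference of mean log2 CPM was -0.38 in batch 1 and -0.44 in batch 2. Sesn3, a FOXO target, was at 0.19 ± 0.07 (adjusted p = 0.303) and Ddit4l at -0.05 ± 0.09.

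**Figure D5:**
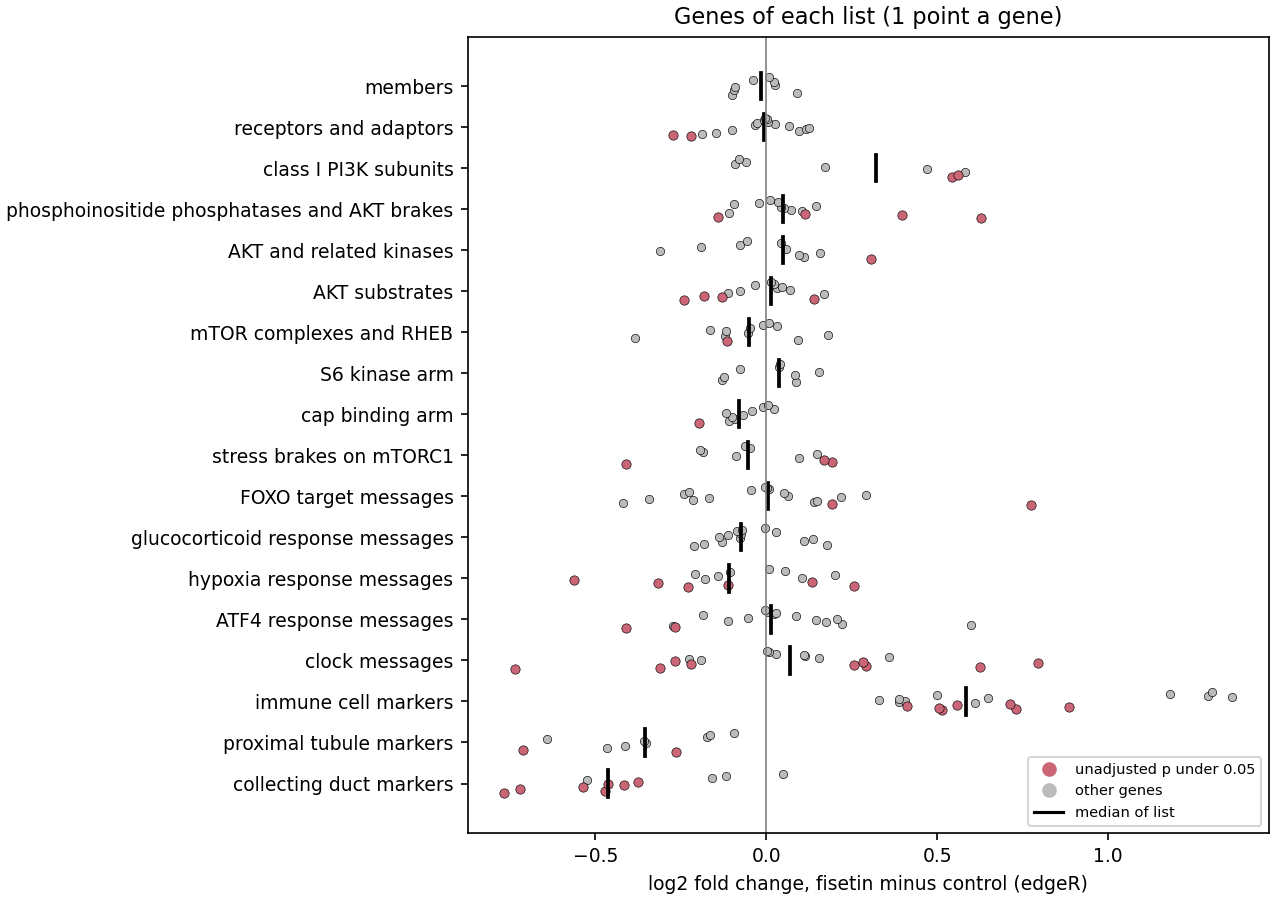
Log2 fold change of fisetin over control (x axis, edgeR) of every tested gene in the 8 members and 17 other lists; red points have an unadjusted p under 0.05, grey points do not, and black bars are list medians. The members lie between -0.10 and 0.09 with no red point, while immune markers lie above 0 and proximal tubule markers below it.

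Messages known to answer to this pathway or to the stresses that raise Ddit4 gave no call in edgeR. Of 18 FOXO targets, which AKT restrains through FOXO factors, 10 were above 0 and 8 below, with 2 higher at an unadjusted p under 0.05: Sesn3 and Pck1, the gluconeogenic enzyme (0.77 ± 0.21, adjusted p = 0.267 in edgeR and 0.0277 in DESeq2). Of 14 glucocorticoid response genes 10 were below 0, none under 0.05 unadjusted, led by Dusp1 (-0.21 ± 0.10) and Zbtb16 (0.18 ± 0.11). Of 14 hypoxia response genes 2 were higher and 4 lower at that threshold, among them the glucose transporter gene Slc2a1 (-0.23 ± 0.06) and Pdk1, the pyruvate dehydrogenase kinase and not the kinase encoded by Pdpk1 (0.26 ± 0.09). Of 16 ATF4 response genes 2 were lower, Sesn2 and Psat1 (-0.27 ± 0.11). Of 18 clock genes 5 were higher and 4 lower, with Npas2 at -0.73 ± 0.13 (adjusted p = 0.145 in edgeR and 0.000145 in DESeq2) and Cry1 at -0.31 ± 0.09; the time of day at which kidneys were taken is not given in the sources used here.

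RefSeq promoter windows of 300 bases (250 before the start and 50 from it, GRCm38.p6) were found for 7 of the 8 members and searched on both strands for short motifs. Hypoxia cores, ACGTG or GCGTG, were present at least once in 43.8% of 32851 such windows, and the share with 2 was not counted. The Ddit4 window (chr10:59951721-59952020, minus strand), with a GC content of 69.0% beside a median of 52.7%, held 2, from bases 64 and 136. It held no glucocorticoid half-site AGAACA (19.0% of windows), ATF4 site TGATGNAA (3.97%), FOXO site GTAAACA (3.65%) or E-box CACGTG (7.15%), a motif that contains the core ACGTG. The hypoxia core was also found in at least 1 window of Pik3ca, Pik3r1, Akt1, Akt2 and Rps6kb1, and in neither window of Pdpk1. Rps6kb1 held a glucocorticoid half-site, Akt1 a FOXO site and Akt2 an ATF4 site, each in 1 window, and no member an E-box. These are matches of letters only.

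The deposited counts and FPKM values together imply a transcript length for each gene and library, a measure chosen after the data had been seen. By limma the diets differed in it for 0% of 14035 genes, the batches for 0%, and no member passed. For Pik3r1 in batch 1 the implied length was 4460 to 4543 bases in the control libraries and 4138 to 4178 in the fisetin libraries, whereas in batch 2 the ranges of 4322 to 4836 and 4493 to 4870 overlapped (interaction of diet with batch, unadjusted p = 0.0418, adjusted p = 0.647). For Pik3ca it was 6494 to 6567 bases in batch 1 and 5175 to 6079 in batch 2 (unadjusted p = 0.000965, adjusted p = 0.930). Its coefficient of variation was largest for Rps6kb1, at 12.23% (2944 to 4096 bases), and smallest for Ddit4, which has a single annotated transcript, at 0.531% (1442 to 1467 bases), beside a median of 3.794% over all 14035 genes. A change of implied length moves FPKM and not the count, so FPKM levels carry this spread, most of all those of Rps6kb1, of Eif4ebp1 (10.39%, 1077 to 1550 bases) and of Pik3ca (7.235%).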

How the data were processed

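The deposited table holds, per the file headers, counts, TPM and FPKM for 12 libraries. Named in the submitters' processing notes are fastp, STAR, featureCounts, DESeq2, GRCm38 and mm10. No version, annotation or counting setting is given in the sources used here. Of the deposited estimated counts above 0, 13.91% were not whole and were rounded. TPM and FPKM were made by the authors and were used as deposited; FPKM serves to compare genes and TPM as an alternative. KAPA mRNA HyperPrep libraries were made from RNA of high integrity, per the labels.

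The test of counts was edgeR 4.0.16 in R 4.3.3: filterByExpr by diet (minimum count 10), TMM, robust glmQLFit with batch and diet, glmQLFTest, two-sided, Benjamini-Hochberg adjustment, threshold 0.05. CPM values are TMM-scaled. Alternatives were DESeq2 1.42.0, limma 3.58.1 (voom with quality weights, log2 of TPM or FPKM + 1), other scalings and filters, no batch term, single batches and leaving out libraries. Exact tests permuted diet within batches (400 arrangements, smallest p 0.005). Over 66 pairs, libraries differed by 6.996 to 104.8 times counting noise, so none was taken for a copy. The steps were tested on simulated data.

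The members and lists were chosen with earlier results of these data known. Named genes are the 8 members, the 2 genes with the smallest p in each list described, and a fixed set (Mtor, Pik3cb, Pik3r2, Rps6kb2, Rps6, Eif4ebp2, Eif4e, Foxo1, Tsc2, Irs1, Irs2, Insr, Sesn2, Ddit4l; results on some others it names are not reported here), with the 3 most correlated genes for each member. Gene coordinates come from GENCODE M21, to which 55141 of 55487 identifiers were matched.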

Additional observations from a re-analysis of the deposited data

Results flagged for a closer look

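Pik3ca in fisetin 6 stood apart from the other fisetin libraries. Its log2 CPM was 7.07, while the other 5 fisetin libraries lay between 6.51 and 6.66, and the gap was 0.728 of the group's range, above Dixon's critical value of 0.625 for 6 values. This was 1 of 28 groups examined in this way, and chance gives about 1 in 20. Fisetin 6 also lay among the control libraries on the first principal component.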

How the results depend on the processing

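No paired analysis was possible because the labels give no replicate numbers that pair the libraries. Over 192 member values under the alternatives, 175 kept their sign and side of the adjusted threshold and 17 changed sign, and no member was called under any setting run. At an unadjusted p under 0.05 the members gave 0 in edgeR with all libraries, 2 by limma-voom with quality weights (Pik3r1, Akt2), 1 in batch 1 alone (Eif4ebp1) and 0 to 1 when 1 library was left out (Akt2 without control 5 or fisetin 5, Pik3r1 without fisetin 3). At that threshold all genes gave 2608 of 17890 in edgeR, 6167 of 17890 by limma-voom and 1381 of 18076 in batch 1. All-gene counts were 2962 of 18030 without control 5, 1628 of 17985 without fisetin 5 and 3364 of 18038 without fisetin 3. Without both control 1 and fisetin 6 the members gave 2, Pik3ca (-0.16, adjusted p = 0.0596) and Pik3r1 (0.14, adjusted p = 0.0932), beside 5892 of 17930 genes. That removal was chosen after seeing the data, from expression itself, so its 2254 calls over all genes support nothing. All-gene calls in edgeR were 0 with all libraries, 70 without fisetin 6, 1 without fisetin 4 and 1 in batch 1 alone, and limma-voom gave 2390. Those 2390 included Erbb2, Met, Pik3cd, Pik3ap1, Inpp4b, Bad, Eif4g3, Sesn2, Sesn3, Pck1, Dusp1, Slc2a1 and Npas2. Their adjusted p by limma-voom ran from 0.0132 (Npas2) to 0.0460 (Inpp4b), and none was called by edgeR with all libraries. The 18 other pathway genes at an unadjusted p under 0.05 became 45 by limma-voom, 9 in batch 1, 7 in batch 2, 5 by TPM, 9 by FPKM, 48 without both libraries, and 9 (without control 4 or fisetin 5) to 35 (without fisetin 6) with 1 library left out. All genes at that threshold moved too, as given above. They were 925 of 17900 in batch 2, 1299 of 17890 by TPM and 2240 of 17890 by FPKM. Without control 4 they were 1702 of 18047, and without fisetin 6 they were 4636 of 18045.

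Signs that turned, as log2 fold changes: by limma-voom Pdpk1 -0.01, Rps6kb1 -0.0082, Ddit4 0.0101, Insr -0.0422 and Ddit4l 0.0243; by TPM Pik3ca 0.0597, Eif4ebp1 0.0772, Pik3r2 0.0615, Rps6kb2 0.0030, Eif4e 0.0081, Tsc2 0.0325, Irs2 0.0588 and Tti1 0.0136; by FPKM Pik3ca 0.0298, Rps6kb1 -0.0047, Eif4ebp1 0.0486, Pik3r2 0.0299, Irs2 0.0297 and Insr -0.0194. In batch 2 alone they were Pik3ca 0.0384, Rps6kb1 -0.0026, Eif4ebp1 0.0096, Irs2 0.2515 and Insr -0.0112, and in batch 1 alone Foxo1 -0.0289. Other scalings turned Pik3ca (0.0030, total count), Irs2 (0.0413, total count; 0.0053, upper quartile) and Insr (-0.0012, RLE scaling; -0.0014, DESeq2). Without both libraries Pdpk1 was -0.0134, Irs1 -0.0199 and Insr -0.0678. With 1 library left out, 4 of these genes turned: Pdpk1 ran from -0.0191 (without fisetin 6) to 0.0285, Irs2 from -0.0949 to 0.0529, Insr from -0.0442 to 0.0291 and Ddit4l from -0.0957 to 0.0477. The family ratios turned for Rps6kb1 (-0.1365 in batch 2; -0.0917 to 0.1173 with 1 library left out), Eif4ebp1 (-0.0266 in batch 1) and Ddit4 (-0.0097 in batch 1; -0.0375 to 0.1202). With 1 library left out, the Pik3ca ratio ran from -0.4745 to -0.1351 and the Pik3r1 ratio from 0.1400 to 0.2337, past 0.05 only without fisetin 6. The cause of these changes was not tested. The median over all genes was 0.001 in edgeR with all libraries and moved furthest by TPM, to 0.055. Together the RNA genes Rn7s1, Rn7s2, Rn7sk and Gm26870 held 49.67% (fisetin 5) to 63.44% (control 1) of a library's TPM. The next highest share was 57.5%, in fisetin 6. Their part in the signs that turned by TPM was not tested. With 246 to 421 counts per library, Eif4ebp1 is the member whose precision depth limits most.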
